A study of Mus musculus with 11 samples.

Results

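The secreted WNT antagonists were followed in RNA from the facial tissue of E10.5 mouse embryos. The genes were chosen by name as the DKK genes *Dkk1*, *Dkk2* and *Dkk3*, the SFRP genes *Sfrp1*, *Sfrp2*, *Sfrp5* and *Frzb*, and *Notum*, *Wif1* and the DKK receptor gene *Kremen1*. These are 10 of the 38561 genes in the count files, each matched by its Ensembl identifier, and 9 of the 10 passed the filter on low counts. *Sfrp5* did not pass and was not tested. The tissue was explants of the nasal processes and of both parts of the first branchial arch, maxillary and mandibular, from embryos of a mixed strain. The libraries carry 4 genotype labels, which are wild type (wt, n = 2) and 3 homozygous mutants with n = 3 each, namely *Wnt9b*KO, which lacks a WNT ligand, *Rspo2*KO, which lacks an R-spondin, and the double mutant DKO. The labels name no source embryo for a library, so the p-values below measure the spread between these libraries, which may be partly technical.

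WNT ligands bind Frizzled receptors together with the co-receptors LRP5 and LRP6, and R-spondins raise the amount of these receptors at the cell surface. Secreted antagonists act on this system from outside the cell. DKK proteins bind LRP5 and LRP6 and, with Kremen receptors, block them, whereas SFRP proteins and WIF1 bind the ligand itself and NOTUM removes the lipid that a WNT protein needs for receptor binding. *Dkk1* and *Notum* are also known as targets that canonical WNT signalling activates, and *Dkk1* is known for its role in forming the head.

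Total counts ranged from 11136166 to 18017344 per library. Levels are in CPM, in which counts are divided by the TMM-scaled total of the library, and a call means an adjusted p below 0.05 in edgeR's quasi-likelihood test. Where groups are said not to overlap, this only describes the libraries. With n = 2 in wt, groups can lie apart by chance, and the share of all genes that do so was not counted. *Rspo2* stood at 14.8 and 16.0 CPM in wt and at 4.73 to 6.58 CPM in *Rspo2*KO, but the library labelled *Wnt9b*KO 2 had 2.86 CPM and the library labelled DKO 3 had 15.5 CPM, which goes against both labels. *Wnt9b* was at 10.8 and 13.4 CPM in wt and at 16.2 to 23.3 CPM in the libraries labelled *Wnt9b*KO and DKO, so its counts do not check those labels. *Xist* was at 679 CPM or more in wt and DKO and below 2 CPM in the other libraries, so sex differs with genotype in every comparison except DKO with wt and *Wnt9b*KO with *Rspo2*KO. Small nuclear RNA genes summed to 352 to 419 CPM in wt and *Rspo2*KO and to 70.1 to 82.6 CPM in *Wnt9b*KO and DKO, a difference between libraries that cannot be told apart from loss of *Wnt9b*. Likewise, any change below between wt or *Rspo2*KO and *Wnt9b*KO or DKO cannot be told apart from this library difference. Markers of facial mesenchyme and of surface ectoderm, 10 of 10 in each list, were detected in every library.

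Of the antagonist genes with a promoter window at hand, *Dkk1* alone held the letters of the site bound by TCF/LEF factors, the DNA-binding partners of β-catenin. The search used CTTTG followed by 2 bases that are each A or T, on both strands of windows of 300 bases, 250 before and 50 after the RefSeq start (GRCm38.p6), which covered 6 of the 10 genes, *Dkk1*, *Dkk2*, *Sfrp2*, *Sfrp5*, *Frzb* and *Wif1*. *Dkk1* had 2 matches, on the strand of the gene, and the other 5 windows had none. Of all 32851 windows, 16.9% held at least 1 match and 1.94% held 2 or more, so 1 of 6 genes with a match is near the share of all windows. *Notum* had no window. The matches began 117 and 98 bases before the RefSeq start of *Dkk1*, at chr19:30549607-30549613 and chr19:30549588-30549594, and did not overlap. GENCODE places the start of *Dkk1* farther upstream, so that by GENCODE both matches lie in its first exon. The stretch of 30 bases that holds both is shown with the matches in capitals (chr19:30549585-30549614, minus strand):
Dkk1: gCTTTGAAatcccatcccggCTTTGTTgtc
A match is a description of these letters and no evidence of binding.

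The antagonist genes differed widely in level. Per length, as CPM per kb of exon, *Sfrp1* was highest with a mean of 33.8 over the 11 libraries, followed by *Sfrp2* with 16.0 and *Frzb* with 11.7. Then came *Dkk2* with 6.53, *Dkk3* with 4.55, *Kremen1* with 3.76, *Dkk1* with 2.48, *Wif1* with 0.999, *Notum* with 0.722 and *Sfrp5* with 0.133 CPM per kb. Over all libraries the lowest *Sfrp1* value, 24.7 CPM per kb, lay above the highest *Sfrp2* value, 21.2 CPM per kb, and every later pair of neighbours overlapped.

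**Figure D1:**
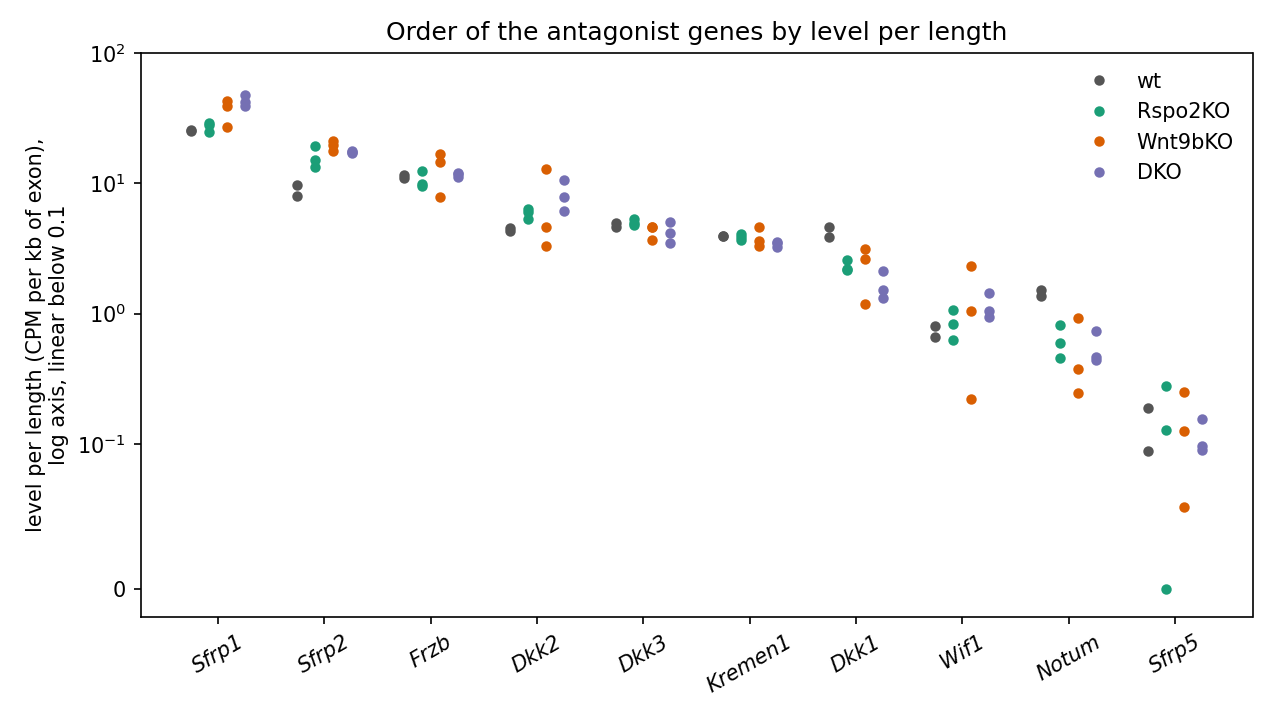
Level per length of the 10 genes in each library (CPM per kb of exon on a log axis that is linear below 0.1), with a point for each library coloured by genotype label and genes ordered by their mean. *Sfrp1* lies above all others, and *Sfrp2* lies below *Frzb* in wt but above it by group mean in each mutant.

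The order changed between genotypes. In wt, *Frzb* (10.9 and 11.5 CPM per kb) stood above *Sfrp2* (8.04 and 9.67 CPM per kb). In the libraries labelled *Rspo2*KO, *Wnt9b*KO and DKO the lowest *Sfrp2* value (13.2, 17.8 and 17.1 CPM per kb) exceeded the highest *Frzb* value of the same group (12.5, 16.8 and 12.02 CPM per kb). At the lower end, *Notum* (1.37 and 1.53 CPM per kb) was above *Wif1* (0.662 and 0.796 CPM per kb) in wt, and below it by mean in all 3 mutant groups, with ranges that overlapped in *Rspo2*KO and *Wnt9b*KO and did not in DKO.

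The summed level of the 4 SFRP genes per length was 45.8 ± 1.73 CPM per kb in wt (SD, n = 2). It was 53.9 ± 2.50 in *Rspo2*KO, 69.3 ± 3.70 in *Wnt9b*KO and 72.3 ± 4.25 CPM per kb in DKO (SD, n = 3 each), and none of the mutant ranges overlapped that of wt. The summed level of the 3 DKK genes was 13.4 ± 0.975 CPM per kb in wt (SD, n = 2), 13.2 ± 0.688 in *Rspo2*KO, 13.5 ± 6.24 in *Wnt9b*KO and 14.1 ± 2.67 CPM per kb in DKO (SD, n = 3 each). Thus the DKK sums had nearly the same mean in the 4 genotypes, while *Dkk1* and *Dkk2* had mutant group means on opposite sides of wt.

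**Figure D2:**
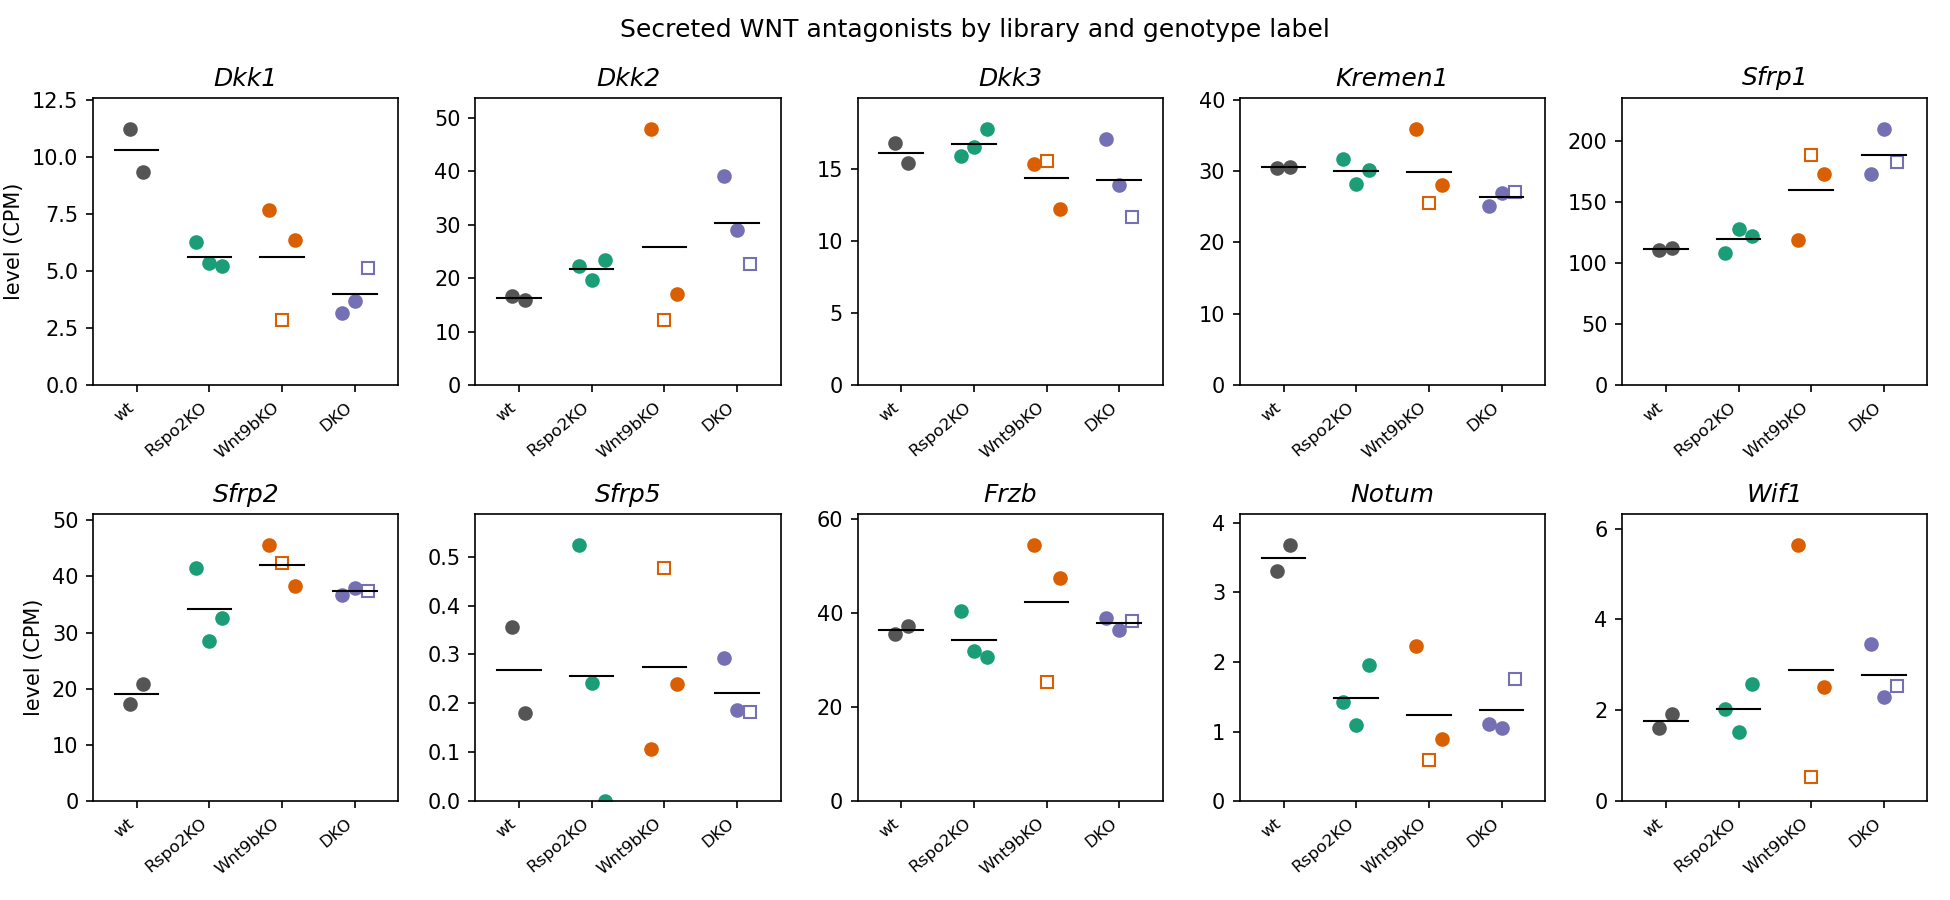
Level of each gene (CPM) in each library by genotype label, with a bar at the group mean and open squares for the libraries labelled *Wnt9b*KO 2 and DKO 3, whose *Rspo2* counts go against their labels. In all 9 mutant libraries *Dkk1* and *Notum* lie below both wt libraries and *Sfrp2* lies above both.

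The libraries labelled *Wnt9b*KO were compared with wt first. These groups also differ in sex by *Xist* and in small nuclear RNA level. Changes between them therefore cannot be told apart from those differences. In *Wnt9b*KO, *Sfrp1* and *Sfrp2* rose and *Dkk1* and *Notum* fell, while the other 5 tested genes did not pass the test. Thus 2 of 9 were called higher and 2 of 9 lower, against 16.8% of 17317 genes higher and 16% lower in the same comparison. The median log2 fold change was 0.22 over the 9 genes and 0.01 over all genes tested.

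*Sfrp2* encodes a secreted protein with a Frizzled-like domain (chr3:83766321-83774316, GRCm38, as for the positions that follow). It stood at 17.3 and 20.8 CPM in wt and at 45.6, 42.3 and 38.2 CPM in *Wnt9b*KO. All 3 mutant libraries lay above both wt libraries. The log2 fold change was 1.14 (SE 0.15, adjusted p = 0.000143), a 2.20-fold rise.

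*Sfrp1*, the most abundant of these genes (chr8:23411502-23449632), stood at 110.9 and 112.4 CPM in wt and at 118.3, 188.0 and 172.7 CPM in *Wnt9b*KO. The groups did not overlap, although replicate 1 lay close to wt. Its log2 fold change was 0.52 (SE 0.16, adjusted p = 0.0252), a 1.43-fold rise.

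*Dkk1*, the canonical LRP5 and LRP6 blocker whose stretch with both matches is shown above (chr19:30545863-30549665), stood at 11.2 and 9.35 CPM in wt and at 7.66, 2.86 and 6.35 CPM in *Wnt9b*KO. All 3 lay below wt, the lowest being the library whose *Rspo2* count goes against its label. The log2 fold change was -0.86 (SE 0.30, adjusted p = 0.0399).

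*Notum*, which encodes the extracellular WNT deacylase (chr11:120653788-120661175), stood at 3.30 and 3.68 CPM in wt and at 2.23, 0.596 and 0.899 CPM in *Wnt9b*KO. Again no mutant library reached wt. The log2 fold change was -1.47 (SE 0.41, adjusted p = 0.0141), and with 10 to 61 counts per library over the series this gene carries a large counting error.

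*Dkk2*, which encodes a DKK that can block or, in some settings, activate LRP6, varied widely within *Wnt9b*KO, with 48.0, 12.2 and 17.1 CPM against 16.7 and 16.0 CPM in wt. The values of *Wif1*, a gene for a WNT-binding protein, spread in a similar way, with 5.64, 0.536 and 2.52 CPM against 1.61 and 1.93 CPM in wt. For both genes replicate 1 was the highest library of the series and replicate 2 the lowest. Their log2 fold changes were 0.66 for *Dkk2* (SE 0.42, adjusted p = 0.239) and 0.71 for *Wif1* (SE 0.60, adjusted p = 0.384).

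*Frzb*, also known as *Sfrp3*, stood at 54.4, 25.3 and 47.5 CPM in *Wnt9b*KO and at 35.4 and 37.3 CPM in wt, with a log2 fold change of 0.22 (SE 0.23, adjusted p = 0.483). *Dkk3*, the divergent DKK, ranged from 12.2 to 15.5 CPM in *Wnt9b*KO and *Kremen1* from 25.6 to 35.9 CPM, and both overlapped wt.

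Of these calls, that of *Sfrp2* held in all 23 alternatives, and *Dkk2* was called higher without a low-count filter (adjusted p = 0.00388). Where a wt library is left out, the lone wt library is assumed to vary like the other groups, which supply the spread. Leaving out wt 1, wt 2 or *Wnt9b*KO 3 left *Sfrp2* as the sole call, with adjusted p from 0.0519 to 0.208 for the other 3 genes. Leaving out *Wnt9b*KO 2 ended the calls of *Dkk1* (adjusted p = 0.0936) and *Sfrp1* (adjusted p = 0.0681). It added rises of *Dkk2* (log2 fold change 1.02), *Frzb* (0.51) and *Wif1* (1.22). In that fit 5 of 9 genes were called, against 29.6% of all genes. Without *Wnt9b*KO 1 the changes of *Dkk2* and *Wif1* were -0.16 and -0.23. Leaving out *Rspo2*KO 2 or *Rspo2*KO 3 ended the call of *Dkk1* (adjusted p = 0.0604 and 0.0525).

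Loss of *Rspo2* was compared with wt next. By edgeR's adjusted p, 0 of the 9 genes were called in *Rspo2*KO, in a comparison that called 0.0289% of all genes higher and 0.00577% lower. At an unadjusted p under 0.05 there were 3 of 9, *Sfrp2*, *Dkk1* and *Notum*, against 11.9% of all genes, and DESeq2 called 1, *Sfrp2*, against 0.637% of the genes it tested. The threshold of the study, a p under 0.05 and a 1.5-fold change, was applied here to edgeR's unadjusted p. The study used DESeq2 and does not say whether its p was adjusted, so its own calls can differ. By this rule *Sfrp2* was higher and *Dkk1* and *Notum* lower, against 4% of all genes higher and 0.687% lower.

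*Sfrp2* stood at 41.5, 28.5 and 32.6 CPM in *Rspo2*KO, and *Dkk1* at 6.28, 5.34 and 5.24 CPM. *Notum* stood at 1.42, 1.09 and 1.96 CPM. None of these 9 values lay within the range of wt, *Sfrp2* being above it and *Dkk1* and *Notum* below. The share of all genes separated in this way was not counted. The log2 fold changes were 0.83 for *Sfrp2* (SE 0.15, adjusted p = 0.104), -0.87 for *Dkk1* (SE 0.30, adjusted p = 0.289) and -1.23 for *Notum* (SE 0.41, adjusted p = 0.274).

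*Sfrp1*, at 108.2, 127.6 and 122.2 CPM, overlapped wt and had a log2 fold change of 0.10 (SE 0.16, adjusted p = 0.852). *Dkk2* stood at 22.3, 19.6 and 23.4 CPM, above both wt libraries, with a log2 fold change of 0.41 (SE 0.42, adjusted p = 0.732). *Dkk3*, *Frzb*, *Wif1* and *Kremen1* overlapped wt, with log2 fold changes from -0.09 to 0.19. Leaving out *Rspo2*KO 2 brought *Sfrp2* past the threshold (adjusted p = 0.0423), with 0.0814% of all genes called. Without a low-count filter *Sfrp2*, *Dkk1* and *Notum* passed, with 2.04% of all genes called.

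The double mutant was compared with the wt libraries already used for *Wnt9b*KO, so that the comparisons share them. *Sfrp1* and *Sfrp2* rose and *Dkk1* and *Notum* fell, that is 2 of 9 in each direction, against 14.3% of all genes higher and 13.1% lower. The median log2 fold change was 0.06 over the 9 genes and 0.01 over all genes tested.

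*Dkk1* stood at 3.17, 3.67 and 5.15 CPM in DKO, the highest being the library labelled DKO 3, and all were below wt. The log2 fold change was -1.36 (SE 0.31, adjusted p = 0.00514), a 2.56-fold fall. *Notum* stood at 1.11, 1.06 and 1.76 CPM, again highest in DKO 3 and below wt throughout, with a log2 fold change of -1.41 (SE 0.41, adjusted p = 0.0203).

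*Sfrp1* reached 172.7, 209.7 and 182.9 CPM in DKO, well apart from wt. The log2 fold change was 0.75 (SE 0.16, adjusted p = 0.00393), a 1.69-fold rise. *Sfrp2* stood at 36.7, 38.0 and 37.5 CPM, with little spread between libraries, and its log2 fold change was 0.97 (SE 0.15, adjusted p = 0.000527), a 1.95-fold rise.

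*Dkk2* stood at 39.2, 29.0 and 22.7 CPM in DKO, above both wt libraries, but with a log2 fold change of 0.89 it did not pass (SE 0.42, adjusted p = 0.128). *Wif1* at 3.46, 2.30 and 2.55 CPM also lay above wt, with a log2 fold change of 0.63 (SE 0.60, adjusted p = 0.470). *Kremen1* at 25.1, 26.9 and 27.1 CPM lay below wt at 30.4 and 30.6 CPM, with a log2 fold change of -0.21 (SE 0.14, adjusted p = 0.273). *Frzb* and *Dkk3* overlapped wt.

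In DKO the calls of *Sfrp1* and *Sfrp2* held in all 23 alternatives. That of *Notum* was lost without wt 1, wt 2, DKO 1 or DKO 2 (adjusted p from 0.0647 to 0.122) and that of *Dkk1* without wt 1 (adjusted p = 0.0541), and *Dkk2* was called without *Wnt9b*KO 1 or *Wnt9b*KO 2 (adjusted p = 0.00456 and 0.0499), with only the compared groups in the model (adjusted p = 0.00552) and without a low-count filter (adjusted p = 5.7e-05). An offset for GC content and length added a fall of *Kremen1* (log2 fold change -0.39, adjusted p = 0.0236).

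**Figure D3:**
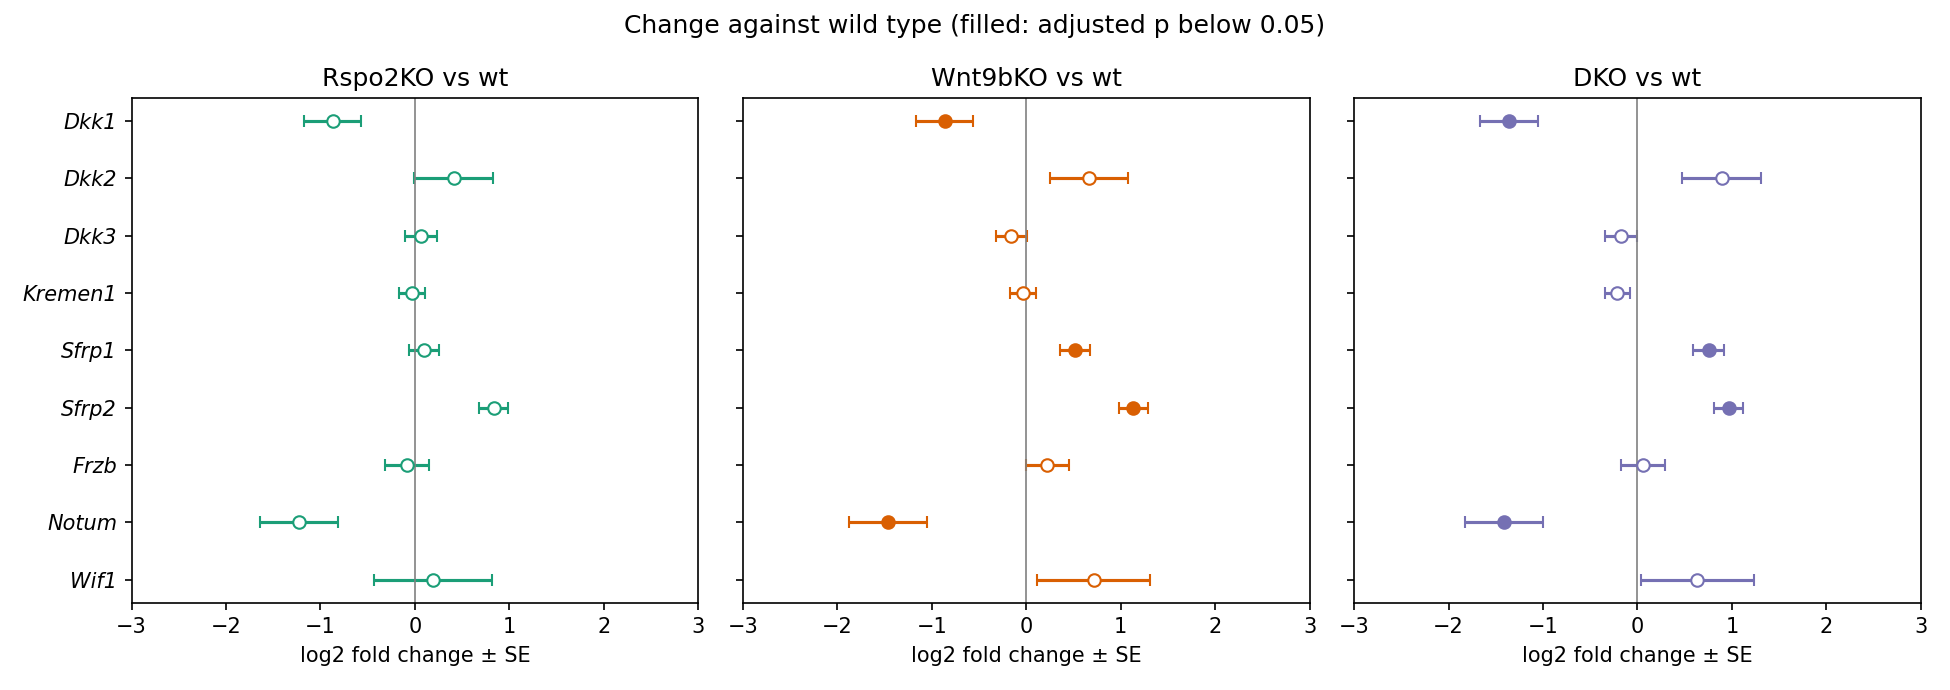
Log2 fold change against wt with its SE for the 9 tested genes in *Rspo2*KO, *Wnt9b*KO and DKO, with filled points for an adjusted p below 0.05 in edgeR's quasi-likelihood test. *Dkk1* and *Notum* lie left of 0 and *Sfrp2* right of 0 in each panel, with calls in *Wnt9b*KO and DKO.

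By the threshold of the study, again applied to edgeR's unadjusted p, 3 genes passed in *Wnt9b*KO. These were *Sfrp2* higher (14.3% of all genes) and *Dkk1* and *Notum* lower (10.5% of all genes), since *Sfrp1* changed by less than 1.5-fold. In DKO 5 passed, *Sfrp1*, *Sfrp2* and *Dkk2* higher (12.6% of all genes) and *Dkk1* and *Notum* lower (7.82% of all genes).

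The mutants were then compared with one another, to ask what loss of the second gene added. Between DKO and *Wnt9b*KO, 0 of the 9 genes were called by edgeR, against 0.0635% of all genes higher and 0.0577% lower, and 0 by DESeq2, against 0.313% of the genes it tested. At an unadjusted p under 0.05 there were 0 of 9, against 5.63% of all genes. *Dkk1* was lower in DKO by a log2 fold change of -0.50 (SE 0.29, adjusted p = 0.949) and *Sfrp1* higher by 0.24 (SE 0.14, adjusted p = 0.956), with ranges that overlapped between the groups. Both groups hold a library whose *Rspo2* count goes against its label. Without these libraries *Dkk1* stood at 7.66 and 6.35 CPM in *Wnt9b*KO and at 3.17 and 3.67 CPM in DKO, without overlap, but was not called. Over the 23 alternatives its log2 fold change ranged from -1.04 to -0.20. Without *Wnt9b*KO 1, *Dkk2* was called higher in DKO (log2 fold change 1.05, adjusted p = 0.0463).

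Between DKO and *Rspo2*KO, *Sfrp1* alone was called, with 1 of 9 higher and 0 lower against 9.17% and 9.07% of all genes. Sex and small nuclear RNA level differ between these groups too, so the call cannot be told apart from them. All 3 DKO libraries lay above the highest *Rspo2*KO library, and the log2 fold change was 0.66 (SE 0.14, adjusted p = 0.00563). *Dkk1* lay lower in DKO than in *Rspo2*KO without overlap, at a log2 fold change of -0.49 (SE 0.29, adjusted p = 0.272). *Sfrp2* differed by 0.13 (SE 0.13, adjusted p = 0.535) and *Notum* by -0.18 (SE 0.41, adjusted p = 0.805). Without both libraries that go against their labels, *Dkk1* also passed (log2 fold change -0.71, adjusted p = 0.0263).

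Between *Wnt9b*KO and *Rspo2*KO, *Sfrp1* was again the sole call, with 1 of 9 higher and 0 lower against 12.5% and 13.5% of all genes. Its log2 fold change was 0.42 (SE 0.14, adjusted p = 0.0435), although *Wnt9b*KO 1 lay within the range of *Rspo2*KO. *Dkk1* had nearly equal means of 5.62 ± 2.48 CPM in *Wnt9b*KO and 5.62 ± 0.578 CPM in *Rspo2*KO (SD, n = 3 each). The *Sfrp1* call was lost without wt 1, wt 2, DKO 1 or any 1 of 5 of the 6 compared libraries (adjusted p from 0.0509 to 0.148), and remained without *Wnt9b*KO 1.

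The interaction, which tests whether the DKO change differs from the sum of the single changes on the log2 scale, was called for 0 of the 9 genes by edgeR, with 0.0635% of all genes called. At an unadjusted p under 0.05 there were 2 of 9, *Sfrp2* and *Notum*, against 9.44% of all genes, and DESeq2 called 1, *Sfrp2*, against 0.103% of the genes it tested. By *Xist*, wt and DKO differ in sex from both single mutants, so this contrast cannot be told apart from sex, and all 5 sex-linked marker genes tested were called in it. The *Sfrp2* interaction was -1.003 (SE 0.20, adjusted p = 0.195), the DKO rise of 0.97 being smaller than the sum of 1.14 and 0.83. That of *Notum* was 1.28 (SE 0.58, adjusted p = 0.512), its falls being -1.47, -1.23 and -1.41 in *Wnt9b*KO, *Rspo2*KO and DKO. For *Dkk1* it was 0.37 (SE 0.42, adjusted p = 0.799) and for *Sfrp1* 0.14 (SE 0.21, adjusted p = 0.859).

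Since *Rspo2* counts and labels disagree in 2 libraries, the antagonists were also set against *Rspo2* library by library. The library labelled *Wnt9b*KO 2, with 2.86 CPM of *Rspo2*, had the lowest *Dkk1* (2.86 CPM), *Notum* (0.596 CPM), *Wif1* (0.536 CPM), *Frzb* (25.3 CPM) and *Dkk2* (12.2 CPM) of the series. The library labelled DKO 3, with 15.5 CPM of *Rspo2*, had the highest *Dkk1* and *Notum* and the lowest *Dkk2* and *Dkk3* of its group. Without both libraries, *Sfrp2*, *Dkk2*, *Frzb* and *Wif1* were called higher and *Dkk1* and *Notum* lower in *Wnt9b*KO. These are 6 of 9 genes, against 29.7% of all genes called in either direction. The call of *Sfrp1* was lost (log2 fold change 0.38, adjusted p = 0.0981). In DKO the 4 calls remained and *Dkk2* was added (log2 fold change 1.06, adjusted p = 0.0330), against 25.6% of all genes called.

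**Figure D4:**
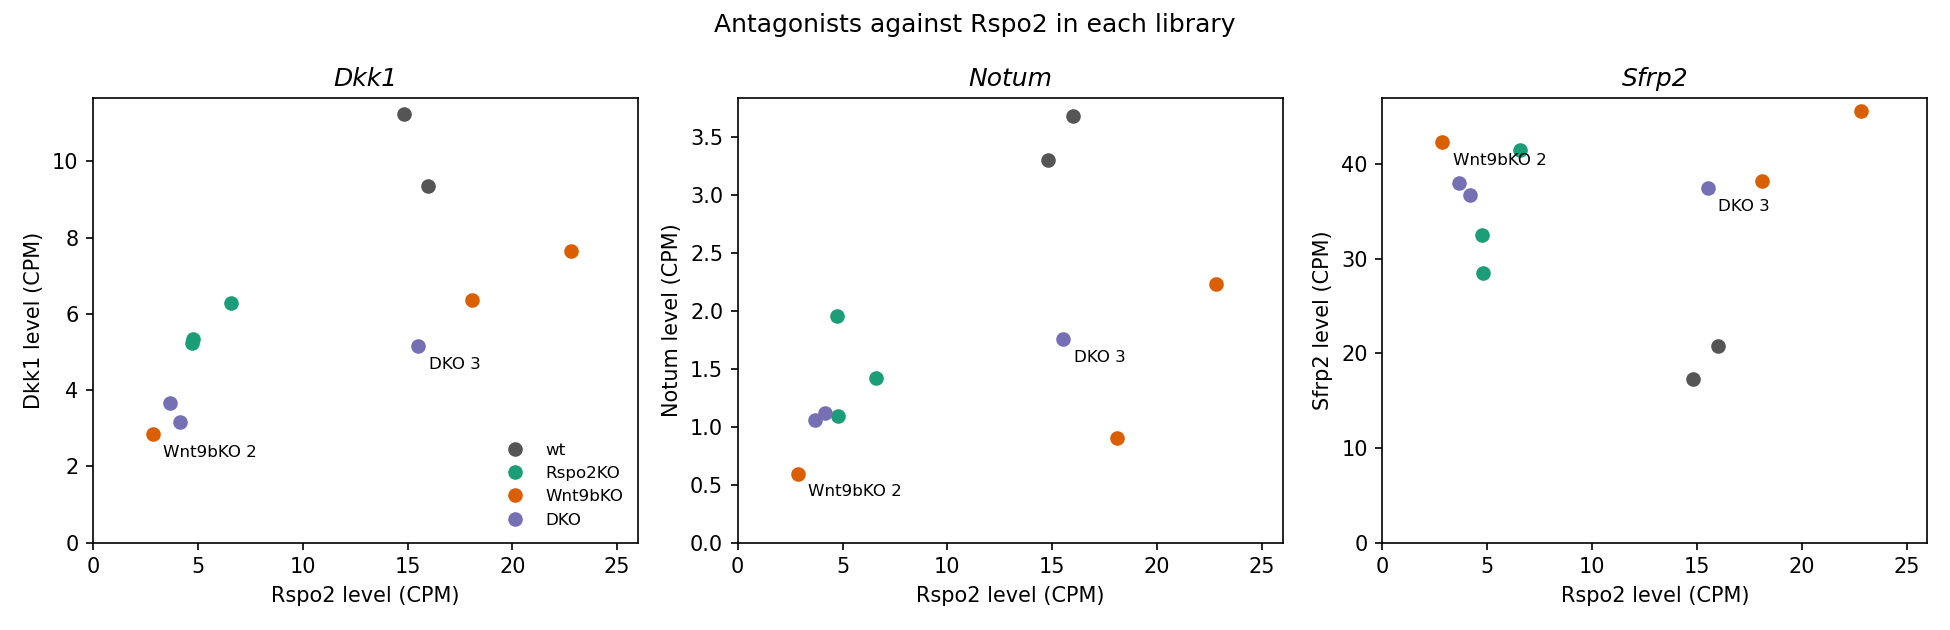
Level of *Dkk1*, *Notum* and *Sfrp2* (CPM) against that of *Rspo2* (CPM), with a point for each library coloured by genotype label and the libraries *Wnt9b*KO 2 and DKO 3 named. *Wnt9b*KO 2 lies among the libraries low in *Rspo2* and DKO 3 among those high in it, and the *Sfrp2* level of both is above wt.

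*Sfrp5* was at the limit of detection, with 0 to 8 counts per library. It stood at 0.357 and 0.181 CPM in wt, at 0.524, 0.243 and 0 in *Rspo2*KO, at 0.106, 0.476 and 0.240 in *Wnt9b*KO and at 0.293, 0.187 and 0.182 CPM in DKO. A count of 0 in *Rspo2*KO 3 allows up to 0.189 CPM (3 counts), which covers counting error only, and no difference was detectable at this depth.

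Of 4 relatives of the DKK, SFRP and Kremen genes outside the chosen 10, *Dkk4*, *Dkkl1* and *Sfrp4* had low counts. *Dkk4*, a secreted DKK, had 0 to 9 counts per library and *Dkkl1* 2 to 6, and neither was tested. At these low counts *Dkk4* lay below wt (0.543 and 0.803 CPM) in each mutant group. Its highest values were 0.372 CPM in *Wnt9b*KO, 0.303 in *Rspo2*KO and 0.485 CPM in DKO. *Sfrp4* had 2 to 18 counts, lay above wt in each mutant group, and had log2 fold changes of 1.42 in *Wnt9b*KO (adjusted p = 0.0671), 1.15 in *Rspo2*KO (adjusted p = 0.462) and 0.93 in DKO (adjusted p = 0.272). *Kremen2*, the other DKK receptor gene, stood at 6.16 and 6.40 CPM in wt and at 2.62 to 7.02 CPM in the mutants, with log2 fold changes from -0.58 to -0.51 and no call.

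Other regulators of WNT outside or at the cell surface, most of them inhibitors, were counted from a fixed list of 13 genes, of which 12 were tested. In *Wnt9b*KO 2 were higher, *Gpc4* (log2 fold change 1.14), a glypican, and *Igfbp4* (0.54), an IGF-binding protein, and 2 were lower, *Draxin* (-0.80), a secreted guidance protein, and *Znrf3* (-0.44), a ligase that removes Frizzled. In DKO 3 were higher, *Gpc4* (1.05), *Trabd2b* (0.96), which encodes a WNT protease, and *Igfbp4* (0.45), and *Znrf3* was lower (-0.70). The 2 of 12 in each direction in *Wnt9b*KO stand near the shares over all genes, 16.8% higher and 16% lower. In DKO the shares over all genes were 14.3% higher and 13.1% lower. In *Rspo2*KO 0 of 12 were called by edgeR, with 3 at an unadjusted p under 0.05 against 11.9% of all genes.

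Of 16 receptor genes, which include the targets of DKK and SFRP proteins, all were tested. In *Wnt9b*KO 4 were higher and 1 lower, with *Lrp6* (log2 fold change 0.94), *Lrp5* (0.58) and *Fzd5* (0.84) among the rises and *Fzd10* the fall (-1.05). In DKO *Lrp6* was higher (0.81) and *Fzd10* (-0.80) and *Ror2* (-0.48) were lower. The counts in *Wnt9b*KO compare with 16.8% of all genes higher and 16% lower, and those in DKO with 14.3% and 13.1%. In *Rspo2*KO 0 were called by edgeR, with 5 of 16 at an unadjusted p under 0.05 against 11.9% of all genes.

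Of 18 WNT ligand genes 17 were tested. The list leaves out *Wnt9b*, which lay above wt in the libraries labelled *Wnt9b*KO and DKO, as given above. Of the 2 deleted genes, *Wnt9b* and *Rspo2*, 1 was called higher in *Wnt9b*KO and 1 in DKO. In *Wnt9b*KO *Wnt3a* (log2 fold change -1.59) and *Wnt9a* (-1.04) were lower, against 16% of all genes. In DKO *Wnt8b* (2.13) was higher, against 14.3% of all genes. Of 6 R-spondin and LGR receptor genes, a list without *Rspo2*, 5 were tested. *Rspo3* was higher in DKO (0.59), against the same 14.3% of all genes. Of 19 WNT target genes, a list that holds *Dkk1* and *Notum*, 17 were tested and 3 were lower in *Wnt9b*KO and 3 in DKO, in both cases *Dkk1*, *Notum* and *Bambi*, which encodes a pseudoreceptor (-0.53 and -0.66), with 0 higher. These 3 of 17 stand near the share of all genes called lower, 16% in *Wnt9b*KO and 13.1% in DKO.

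Markers of other cells were counted in the same contrasts. Over all genes, 16.8% were called higher and 16% lower in *Wnt9b*KO, and 14.3% higher and 13.1% lower in DKO. Of 10 forebrain and eye genes, 8 were called higher and 1 lower in *Wnt9b*KO and 6 higher in DKO, and their summed level was 131 to 148 CPM in wt, 150 to 185 CPM in *Rspo2*KO, 172 to 341 CPM in *Wnt9b*KO and 199 to 244 CPM in DKO. Of 7 erythroid genes, 4 were lower in *Wnt9b*KO and 6 in DKO, with sums of 3922 to 4869 CPM in wt, 4444 to 5729 CPM in *Rspo2*KO, 1771 to 2323 CPM in *Wnt9b*KO and 1715 to 2801 CPM in DKO. Of 10 neuronal genes 3 were lower in *Wnt9b*KO and 4 higher in DKO, with sums of 646 to 752 CPM in wt, 813 to 931 CPM in *Rspo2*KO, 401 to 633 CPM in *Wnt9b*KO and 768 to 867 CPM in DKO. Of 8 cardiac genes 4 were tested and 3 were lower in *Wnt9b*KO and 3 in DKO, with sums of 10.1 and 77.7 CPM in wt while the mutant libraries had 3.69 to 11.2 CPM. Of 8 endothelial genes 2 were higher and 3 lower in *Wnt9b*KO and 2 higher and 2 lower in DKO. Facial mesenchyme had 1 of 10 genes higher in *Wnt9b*KO and 1 lower in DKO, and surface ectoderm had 1 higher and 1 lower of 10 in each. Summed mesenchyme levels of wt spanned 957 to 1016 CPM. Every *Rspo2*KO library (724 to 787 CPM) and every DKO library (755 to 905 CPM) fell below that span. Those of *Wnt9b*KO (636 to 1196 CPM) spread to both sides of it. For surface ectoderm, the summed range of each mutant group overlapped that of wt (285 to 295 CPM). No gene of these lists was at 0 in all 11 libraries. The part of these cells in the changes of *Sfrp1*, *Sfrp2*, *Dkk1* and *Notum* was not tested, and in bulk tissue fewer cells of a type and less RNA per cell cannot be told apart.

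The genes whose levels followed the 4 called antagonists most closely were sought among 10882 protein-coding genes with a mean of at least 5 CPM (10883 for *Notum*), by Pearson's r of log2 CPM over the 11 libraries. For *Dkk1* these were *Tbx2* (r = 0.926), *Foxf1* (0.922) and *Barx1* (0.922), which encode transcription factors. For *Notum* they were *Efna4* (r = 0.919), *Helb* (0.918) and *Ttl* (0.913). For *Sfrp1* they were *Rnf115* (r = 0.971), *Rngtt* (0.957) and *Zmpste24* (0.954), and for *Sfrp2* they were *Mycbp2* (r = 0.970), *Sptbn1* (0.970) and *Fat4* (0.963), an atypical cadherin gene. The points share genotype, sex and library composition. After the group means were removed, r was 0.920 for *Dkk1* with *Tbx2*, 0.868 for *Notum* with *Efna4*, 0.916 for *Sfrp1* with *Rnf115* and 0.847 for *Sfrp2* with *Mycbp2*. Over all pairs named here it ranged from 0.737 (*Sfrp2* with *Fat4*) to 0.929 (*Sfrp1* with *Rngtt*). The pairs were picked by r over the same libraries, so these values are no independent check.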

How the data were processed

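RNA of 11 libraries of facial processes was sequenced as single-end reads, and the authors deposited counts, whole numbers of reads per Ensembl gene and library, without normalization. By the methods of the study, reads were trimmed with Cutadapt, mapped to GRCm38 with STAR and counted with HTSeq-Count. Versions and strand setting are not given in the sources used here. The labels gave each library its genotype and number, with 2 wt libraries, and all libraries were kept under their labels. Names, exon lengths and positions are from GENCODE, and 36723 of 38561 identifiers matched. Promoter windows are from RefSeq.

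The 17317 genes that passed edgeR's filterByExpr were fitted with edgeR 4.0.16 (R 4.3.3) with TMM factors, 1 mean per genotype over all libraries and the quasi-likelihood test, two-sided, with Benjamini-Hochberg adjustment over all genes tested. Promoters and plots used Python 3.11.15 with pandas 2.3.3 and matplotlib 3.10.9. The fit was tested on simulated data. Total counts of 11136166 to 18017344 set the precision, and 3 counts were taken as the floor. The antagonist genes, the gene lists and the markers were chosen with earlier results of these data known. All 10 antagonists and their 4 relatives were named. From the other WNT lists up to 4 called genes per comparison, those with the smallest p, and for each antagonist called against wt the 3 most similar genes were eligible. *Rspo2*, *Wnt9b* and *Xist* were named to check labels. Alternatives were DESeq2 1.42.0, RLE and upper-quartile factors, no filter, at least 10 counts in every library, autosomal protein-coding genes only, only the compared groups, the replicate block, a loess offset (span 0.3) for GC content and length with and without the block, the threshold of the study applied to edgeR's unadjusted p, and leaving out libraries.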

Additional observations from a re-analysis of the deposited data

How the results depend on the processing

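The wt group has 2 libraries, so each comparison with wt rests on them, and low counts limit *Notum*, *Wif1* and *Sfrp5*. The number of antagonists called was 4 in *Wnt9b*KO, 0 in *Rspo2*KO and 4 in DKO against wt, 0 for DKO with *Wnt9b*KO, 1 for DKO with *Rspo2*KO, 1 for *Wnt9b*KO with *Rspo2*KO and 0 for the interaction. With 1 library left out these counts ranged from 1 to 5, from 0 to 1, from 2 to 5, from 0 to 1, from 1 to 1, from 0 to 2 and from 0 to 0. With only the compared groups in the model they were 2 in *Wnt9b*KO against wt and 0 for *Wnt9b*KO with *Rspo2*KO. With DESeq2 they were 1 in *Rspo2*KO against wt and 1 for the interaction. Without a filter they were 5 in *Wnt9b*KO and 5 in DKO against wt, *Dkk2* being added in both, 3 in *Rspo2*KO against wt, 2 for DKO with *Rspo2*KO and 1 for the interaction. With the threshold of the study they were 3 in *Rspo2*KO against wt, 0 for *Wnt9b*KO with *Rspo2*KO and 2 for the interaction. With the GC content and length offset the count was 2 for *Wnt9b*KO with *Rspo2*KO, with and without the block. Without both libraries whose *Rspo2* counts go against their labels it was 2 for DKO with *Rspo2*KO and 2 for *Wnt9b*KO with *Rspo2*KO. The share of all genes called moved as well. With 1 mutant library left out it ranged from 27.6% to 35.4% in *Wnt9b*KO and from 19.1% to 31.7% in DKO against wt. Leaving out wt 1 or wt 2 moved it below these ranges in both comparisons, so the share depends on the wt libraries. There the lone wt library is assumed to vary like the other groups. Without a filter it was 20.8% in *Wnt9b*KO, 2.04% in *Rspo2*KO and 18.1% in DKO against wt. The cause of these shifts was not tested.

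Replicate numbers were not treated as pairs, since the labels name no shared litter or day and not every same-number correlation was over 0.1. The deviations of libraries with the same number correlated between -0.105 and 0.236 over 15 pairs, 3 of them above 0.1, with a median of 0.0659 against -0.0236 for libraries with different numbers, and 8 of the 11 libraries correlated best with one of their own number. With n = 2 the wt deviations mirror each other, so pairs with wt carry no evidence on pairing. Among the mutants, same-number pairs ran from 0.0415 to 0.236, all above 0, and different-number pairs from -0.186 to 0.0631. The replicate block left the number of antagonists called at 4, 0, 4, 0, 1, 1 and 0 in the 7 comparisons. With the block, signs turned for *Wif1* between DKO and *Wnt9b*KO (0.0573, and 0.0166 with the offset), *Dkk1* between *Wnt9b*KO and *Rspo2*KO (-0.0414, and -0.0178 with the offset) and the *Kremen1* interaction (0.0150 with the offset).

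Other signs that turned belonged to values without a call. For *Kremen1* between *Wnt9b*KO and *Rspo2*KO, upper-quartile factors gave 0.0118 and autosomal protein-coding genes 0.00157. Without both libraries that go against their labels, log2 fold changes became 0.0641 for *Kremen1* in *Wnt9b*KO against wt, 0.16 for *Dkk3* and -0.54 for *Notum* between DKO and *Wnt9b*KO, 0.10 for *Kremen1* and 0.10 for *Notum* between *Wnt9b*KO and *Rspo2*KO, and -0.16 for *Dkk1* and 0.11 for *Dkk3* in the interaction. With 1 library left out, log2 fold changes in *Wnt9b*KO against wt ranged from -0.16 to 1.02 for *Dkk2*, from -0.23 to 1.22 for *Wif1* and from -0.19 to 0.0934 for *Kremen1*. In *Rspo2*KO against wt they ranged from -0.00244 to 0.13 for *Dkk3*, from -0.0678 to 0.0330 for *Kremen1* and from -0.0249 to 0.39 for *Wif1*. Between DKO and *Wnt9b*KO they ranged from -0.11 to 1.05 for *Dkk2*, from -0.17 to 0.11 for *Dkk3*, from -0.43 to 0.0571 for *Frzb*, from -0.56 to 0.86 for *Wif1* and from -0.27 to 0.80 for *Notum*, and between DKO and *Rspo2*KO from -0.45 to 0.0708 for *Notum*. Between *Wnt9b*KO and *Rspo2*KO they ranged from -0.28 to 0.34 for *Dkk1*, from -0.57 to 0.60 for *Dkk2*, from -0.42 to 1.03 for *Wif1*, from -0.99 to 0.11 for *Notum* and from -0.16 to 0.11 for *Kremen1*. For the interaction they ranged from -0.53 to 0.64 for *Dkk2*, from -0.23 to 0.0534 for *Dkk3*, from -0.0342 to 0.27 for *Sfrp1*, from -0.35 to 0.14 for *Frzb*, from -0.76 to 0.67 for *Wif1* and from -0.26 to 0.00324 for *Kremen1*.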
